A study of Rattus norvegicus with 4 samples.

Results

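The insulin-like growth factor (IGF) system was followed through the cells of the rat anterior pituitary by 10 of the 30058 genes in the table of counts. The genes were taken by symbol: the ligands *Igf1* and *Igf2*, the receptor *Igf1r*, the binding proteins *Igfbp2* to *Igfbp7* and the protease *Pappa2*, which is listed under the symbol LOC680415. They were picked by name and not by a cut on measured values, though earlier results of these data were known. Single-cell RNA sequencing (10X Genomics, 3′ ends of transcripts) was done on dispersed glands of Sprague Dawley rats from which the posterior and intermediate lobes had been removed. There were 2 groups, with no treatment: diestrus females at 44 days of age and males at 59 days. Each group was 1 pool of 4 pituitaries loaded on 2 lanes, so the lanes of a sex are technical replicates. P-values between the sexes, or between groups within a cell type, measure the spread between such libraries. Those between cell types rest on 1 sum per type and sex. Sex was a covariate there, so their spread is how far the differences between types vary between the female and male pools. In that spread sex, age and pool are mixed. No p-value measures the variation among single rats. A difference between the sexes cannot be told apart here from a difference of age or of pool.

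Liver and many other tissues make IGF1 in response to growth hormone, and IGF1 acts back on the pituitary to restrain growth hormone secretion. IGF1 and IGF2 act through the receptor tyrosine kinase encoded by *Igf1r*. Outside cells most IGF is held by IGF-binding proteins (IGFBPs), which prolong its life and limit its access to the receptor, and the protease PAPP-A2, the product of *Pappa2*, frees it by cutting IGFBP3 and IGFBP5.

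The lanes held 1868 and 1861 female cells and 2047 and 2085 male cells, with 18955509 to 24048021 UMIs (unique molecular identifiers, each standing for 1 captured transcript) per lane. Marker genes named 6848 cells as folliculostellate cells (FSC, 2314), somatotrophs (S, 1889), corticotrophs (C, 794), leukocytes (Le, 548), lactotrophs (L, 486), erythrocytes (E, 361), gonadotrophs (G, 237), endothelial cells (EC, 133) and thyrotrophs (T, 86). A further 46 pericytes, 55 melanotrophs and 54 cells of the posterior lobe were kept apart. Genes that took no part in the naming were found in the types they are known for: *Pou1f1*, the transcription factor of S, L and T, had a UMI in 91.3% of S, 94.9% of L and 66.3% of T, *Csf1r*, a macrophage receptor, in 88.5% of Le, and *Sox2* in 71.7% of FSC. The 46 cells called pericytes below were picked by the collagen and matrix genes *Col1a1*, *Dcn* and *Lum*. They carried the pericyte genes *Pdgfrb* in 73.9% and *Rgs5* in 28.3% of cells, and the fibroblast genes *Pdgfra* in 63.0% and *Col3a1* in all cells, so the markers do not tell pericytes from fibroblasts. *Eif2s3y*, a Y-linked gene, had 0 and 1 UMI in the female lanes against 2038 and 2100 in the male lanes. Barcode sequences were shared between lanes in 30 cases (60 cells), and these cells were kept.

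A level is given below as UMIs of a gene per 1000000 UMIs (UPM) summed over the cells of a type, and lane values are given as both female lanes, then both male lanes. A cell was counted as positive above a threshold set on the values of each gene. Levels of a gene are compared between cells, not between genes. Intervals on shares are exact binomial (Clopper-Pearson) 95% intervals and cover counting error only. A value after ± is an approximate standard error (SE). It is the log2 change over the square root of the F statistic of its edgeR test. For genes of few UMIs it can be smaller than counting error. E served as a check on free RNA: over 361 cells *Igfbp5* stood at 3.83 to 8.09 UPM in the lanes and *Igfbp7* at 1.16 to 4.04 UPM, *Igfbp2* had 1 UMI, and the other 7 genes had none, which allows up to 0.952 UPM. E can understate free RNA in other types. In the female lanes *Prl*, the prolactin gene, stood at 571 and 656 UPM in E and at 1612 and 1711 UPM in Le.

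Between 9 types (pericytes taken in, E left out) the 10 genes passed in 136 of 360 tests, or 37.8%, where all genes passed in 12.6% of 500760 tests (edgeR on UMI sums per type and sex, adjusted p below 0.001). Of the 36 pairs of types, *Igfbp7* passed in 25, *Igfbp5* in 23, *Igf1* and *Igfbp4* in 19 each, *Igfbp3* in 18, *Igfbp2* in 11, *Igfbp6* in 8, *Igf1r* and *Pappa2* in 6 each and *Igf2* in 1. *Igfbp6* entered these tests only through pericytes and *Pappa2* only through S, because no other type met the filter on low counts. Their calls in those types are not independent of that filter. The map of levels by type showed binding proteins in FSC, EC, pericytes and posterior lobe cells, *Igf1* in pericytes, EC, Le and L, and *Pappa2* in S.

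**Figure D1:**
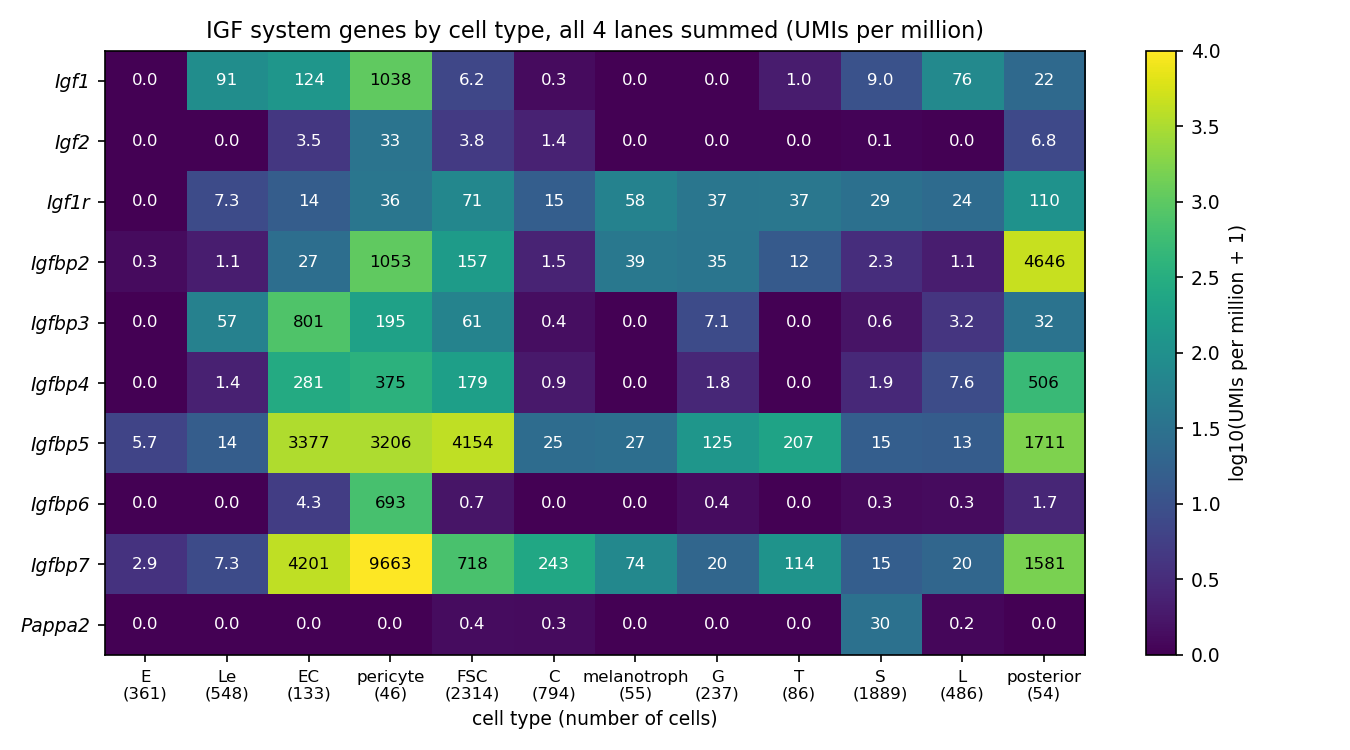
Levels of the 10 IGF system genes (rows) in 12 cell types (columns), in UMIs per 1000000 UMIs with the 4 lanes summed; colour gives log10 of the level plus 1, and the number of cells stands under each type. *Igfbp5* stands at 4154 in FSC, *Igfbp7* at 9663 in pericytes, *Igfbp2* at 4646 in posterior lobe cells and *Pappa2* at 30.2 in S.

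*Igf1* had 1678 UMIs in 802 cells. Pericytes held the highest level, 916 and 1320 UPM in the female lanes and 1187 and 820 UPM in the male lanes, and 82.6% of them were positive (interval 68.6% to 92.2%). They were 0.657% of the cells and held 20.6% of the *Igf1* UMIs. In log2 they exceeded Le by 2.87 ± 0.53 (SE, adjusted p = 6.61e-04, edgeR), L by 3.01 ± 0.53 (adjusted p = 4.36e-04) and FSC by 7.27 ± 0.64 (adjusted p = 5.17e-07), and of the 8 comparisons with other types only that with EC did not pass (adjusted p = 0.00122).

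Next came EC, Le and L, whose *Igf1* levels did not differ from each other by this test. EC had 105, 111, 159 and 129 UPM, Le had 145, 118, 48.1 and 61.3 UPM, and L had 60.9, 57.8, 104 and 119 UPM. L, the prolactin cells, held 28.7% of all *Igf1* UMIs in 6.94% of the cells, and 41.6% of L were positive (37.1% to 46.1%). Each of the 3 types exceeded FSC, C and G: for FSC by 4.40 ± 0.58 in Le and 4.26 ± 0.57 in L (adjusted p = 9.17e-06 and 1.68e-05). Le and EC also exceeded S, by 3.22 ± 0.54 and 3.02 ± 0.57 (adjusted p = 9.65e-05 and 3.98e-04), while L against S missed the limit (3.08 ± 0.54, adjusted p = 0.00123).

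Among the other hormone cells *Igf1* was scarce. G had no UMI in 237 cells, so the level in L was at least 71.3-fold higher, taking 3 UMIs over all G as the limit of a zero. C had 3 UMIs in 794 cells and T had 1 in 86.

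Levels by lane showed *Igf1* shifted between the sexes in several types. In S, the growth hormone cells, it stood at 22.3 and 14.8 UPM in the female lanes and at 2.89 and 2.55 UPM in the male lanes, a log2 change of -2.81 ± 0.23 (male minus female, adjusted p = 2.31e-11). The sexes did not overlap, and 11.4% of female and 2.37% of male S were positive. With every cell thinned to 2000 UMIs, 3.65% and 1.09% had a UMI, and the change of -1.85 missed the limit (adjusted p = 0.00124).

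In Le the female lanes (145 and 118 UPM) also stood above the male lanes (48.1 and 61.3 UPM), by a change of -1.25 ± 0.19 (adjusted p = 8.37e-04). This call was a close one: leaving out any of the 4 lanes ended it, with changes of -1.42 to -1.08 and adjusted p from 0.00265 to 0.150. In L the male lanes were the higher ones, 104 and 119 against 60.9 and 57.8 UPM, and the call depended on scaling, with 0.25 ± 0.14 (adjusted p = 0.168) by TMM factors and 0.90 (adjusted p = 2.23e-06) by library size alone. Between these scalings the median of all genes in L moved from 0.02 to 0.66. *Prl*, the prolactin gene, took 319942 and 310177 UPM in female L and 183104 and 174029 UPM in male L, and the median depth was 18301 UMIs per cell in female and 7265 in male L, and their part in the result was not tested.

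The difference of sex effects was tested itself. For *Igf1* the effect in S minus that in L was -3.03 ± 0.29 (adjusted p = 1.06e-10), and the effect in FSC minus that in S was 3.37 ± 0.39 (adjusted p = 3.12e-08), where FSC had 5.87, 3.82, 6.54 and 8.09 UPM. Of all genes 8.48% passed for S minus L and 2.99% for FSC minus S.

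*Prl* RNA was also counted outside L, with more in the female lanes: S had 1441 and 1400 UPM of *Prl* in the female lanes and 282 and 233 UPM in the male lanes, and E had 571 and 656 against 127 and 116 UPM. Beside it, female S had 195 *Igf1* UMIs for 15021 *Prl* UMIs, or 12.98 per 1000 (exact Poisson interval 11.2 to 14.9), and female L had 0.189 per 1000. Male S had 43 *Igf1* UMIs for 4065 *Prl* UMIs, or 10.58 per 1000 (7.66 to 14.2), and male L had 0.621 per 1000. The intervals of female and male S overlapped, and *Igf1* and *Prl* were each lower in male S. In FSC, where *Prl* was also lower in the male lanes, *Igf1* had 3.59 per 1000 in females and 24.8 in males. Whether the lower *Igf1* in male S is tied to the lower *Prl* was not tested. *Prl* took part in naming L, and cells positive for markers of both S and L were left out.

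S with an *Igf1* UMI had less *Gh1*, the growth hormone gene, than S without one, in 4 of 4 lanes. The levels were 191744 against 291280 UPM in the first female lane, 184385 against 302451 UPM in the second, 245731 against 313502 UPM in the first male lane and 224128 against 316393 UPM in the second. *Prl* in L was likewise lower in cells with an *Igf1* UMI in 4 of 4 lanes. It had 314460 against 329308 and 296199 against 336829 UPM in the female lanes. In the male lanes it had 170615 against 196879 and 139111 against 207346 UPM. The S with an *Igf1* UMI were 69, 57, 18 and 15 cells. Having a UMI depends on depth, which differed between the cells compared. Median UMIs of S with an *Igf1* UMI were 11714, 10066, 12549.5 and 13039. S without one had 11092.5, 12311, 15559 and 15590. For L they were 18171.5, 21829.5, 7671.5 and 6568 with one and 13899, 16591, 7468 and 7365 without. Both patterns are descriptions over cells with no test, and the part of depth in them was not tested.

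**Figure D2:**
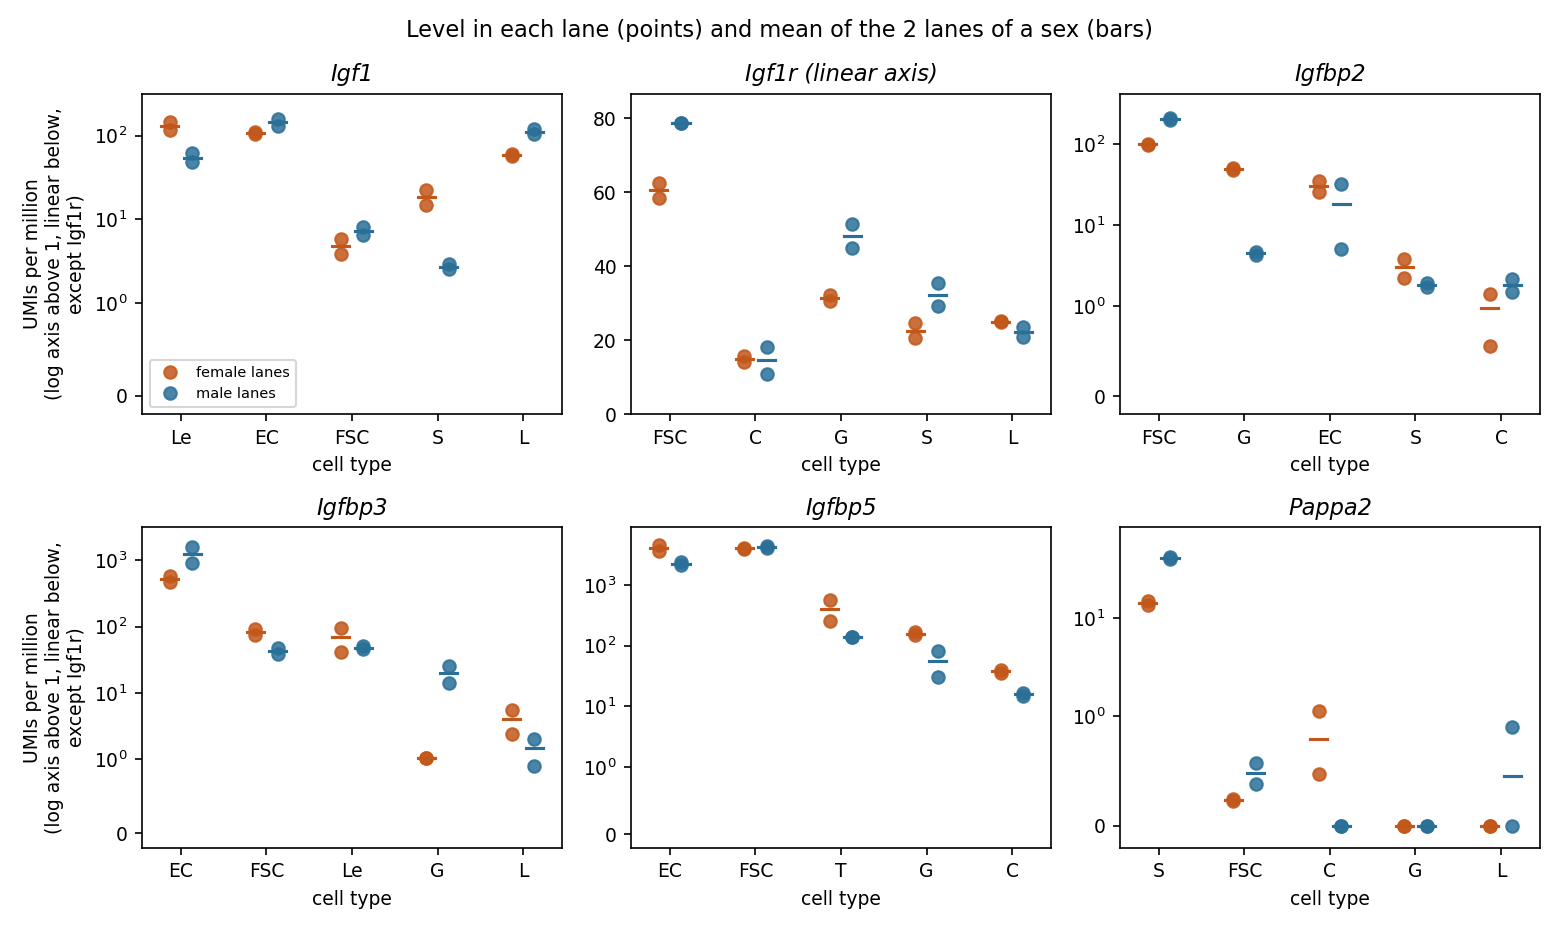
Levels of 6 genes in each lane (points, UMIs per 1000000 UMIs) for 5 cell types each, with the mean of the 2 lanes of a sex as a bar, females in orange and males in blue; the axes are logarithmic above 1 and linear below, except for the linear axis of *Igf1r*. *Igf1* stands higher in the female lanes of Le and S, *Igfbp2* in the male lanes of FSC and in the female lanes of G, and *Pappa2* in the male lanes of S.

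*Igf2*, the ligand best known from fetal growth, was near the limit of detection with 106 UMIs in 87 cells. FSC held 71 of them, at 2.20 to 4.24 UPM in the lanes, C held 13, and pericytes held 11, of which 10 lay in 1 cell. E, Le, G, T, L and melanotrophs had none. The pair that passed was pericytes over S (adjusted p = 3.38e-04), and no pair passed without the male lane of 2047 cells, which holds that cell.

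*Igf1r* was read in all 9 types. FSC had the highest level of the 9 types, 62.7, 58.4, 78.9 and 78.8 UPM, and every FSC lane stood above every lane of the other 8. Outside the 9 types, the male lanes of posterior lobe cells had a mean of 106 UPM, above FSC. Those of melanotrophs had a mean of 57.5 UPM. G had 32.2, 30.6, 44.9 and 51.4 UPM, T had 31.1 to 43.9 UPM, S had 20.5, 24.6, 29.2 and 35.6 UPM, L had 20.9 to 25.3 UPM and C had 11.0 to 18.3 UPM. Le had 5.89 to 8.55 UPM and EC 5.15 to 24.8 UPM, and these 2 types did not differ by the test (adjusted p = 0.821).

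FSC exceeded Le by 2.65 ± 0.33 in log2, EC by 2.44 ± 0.37 and C by 2.04 ± 0.26 (adjusted p = 2.99e-06, 5.80e-05 and 6.93e-06). G, S and L exceeded Le by 1.93 ± 0.36, 1.89 ± 0.33 and 1.72 ± 0.35 (adjusted p = 2.49e-04, 1.22e-04 and 5.44e-04). FSC against G, T, S and L did not pass, nor did any pair among these 4 hormone cell types. With sums per lane in place of sums per sex, 15 pairs passed for *Igf1r* in place of 6. Over 20 sums of type and sex the Pearson correlation of the log levels of *Igf1* and *Igf1r* was 0.19, a description of points that share libraries and depth.

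The receptor gave no call between the sexes. Male minus female was 0.34 ± 0.08 in FSC, 0.47 ± 0.12 in S and -0.83 ± 0.26 in L (adjusted p = 0.0136, 0.00476 and 0.0101), and in S the change passed without the male lane of 2047 cells (0.60, adjusted p = 1.94e-04). The effect in S minus that in L was 1.33 ± 0.28 (adjusted p = 3.90e-04) and in FSC minus L 1.21 ± 0.27 (adjusted p = 8.17e-04). By library size alone neither of these differences passed (0.70 and 0.56, adjusted p = 0.0556 and 0.119).

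The 6 *Igfbp* genes together took 1.52% of the UMIs of pericytes, 0.869% in EC, 0.848% in posterior lobe cells and 0.527% in FSC, against 0.0271% in C, 0.00455% in L and 0.00346% in S. With cells thinned to 2000 UMIs, 81.4% of FSC had UMIs of at least 2 of the 6 genes and 33.2% of at least 3, as had 95.5% and 69.9% of EC. At that depth 94.2% of S and 93.8% of L had none, and 98.3% of E had none.

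*Igfbp5*, whose product also binds to matrix, was the widest FSC gene of the system: 96.5% of FSC were positive (95.7% to 97.2%), and FSC held 91.5% of its UMIs. FSC had 4095, 3992, 4067 and 4427 UPM, EC had 4545, 3643, 2403 and 2141 UPM, and pericytes had 1798, 2769, 3339 and 4667 UPM. These 3 types overlapped and gave no call among themselves, and each exceeded Le, C, G, T, S and L. FSC stood above S by 7.58 ± 0.55 in log2 (adjusted p = 4.91e-09). Of the hormone cells T had the most, 563, 255, 137 and 139 UPM, above C, S and L, for C by 3.06 ± 0.48 (adjusted p = 3.79e-04).

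*Igfbp5* counts passed between the sexes in EC, C and G, with the higher count in females each time, and in C and male G they lay below the ratio of FSC RNA given in the next paragraph. In EC the change was -0.88 ± 0.11 (male minus female, adjusted p = 1.29e-05). In G the level was 150 and 166 UPM in females and 82.7 and 30.01 UPM in males (-1.77 ± 0.29, adjusted p = 7.19e-04), and in C it was 36 and 39.5 against 16.8 and 14.9 UPM (-1.31 ± 0.19, adjusted p = 2.22e-05). The call in G ended with DESeq2 (adjusted p = 0.106), and without the male lane of 2047 cells the change was -2.68. With cells thinned to 2000 UMIs none of the 3 calls held by edgeR (adjusted p = 0.00892 in EC, 0.641 in C and 0.00106 in G). FSC gave no call, at 0.03 ± 0.04 (adjusted p = 0.641). The effect in FSC minus that in C was 1.36 ± 0.24 (adjusted p = 5.20e-04) and in FSC minus G 1.85 ± 0.25 (adjusted p = 6.26e-07).

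RNA of FSC genes was also counted in hormone cells, so 3 of them that took no part in the naming (*Sox2*, *Sox9*, *Aldh1a2*) were set beside *Igfbp5*. Per 1000 UMIs of these genes, FSC had 7370 *Igfbp5* UMIs in females and 7981 in males. C had 1574 and 699, S had 3236 and 986, L had 2810 and 743, and male G had 2882, all below the FSC ratio. The counts in S and L are not read as expression, and whether these cells express *Igfbp5* was not tested. In C and male G the ratio cannot decide this, because the paper reports *Sox2* RNA in a minority of both types and SOX2 protein in some ACTH cells. RNA of their own *Sox2* would lower the ratio, so whether C and male G express *Igfbp5* was not tested. The calls in C and G and the differences FSC minus C and FSC minus G are given as differences of counts only. Female G had 12040 per 1000, on 25 UMIs of the 3 genes, and T had 105 and 95 *Igfbp5* UMIs beside 5 and 1.

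*Igfbp7*, whose product binds IGFs weakly and is known from vessel walls, was highest in pericytes and EC. Pericytes had 9515, 8242, 9785 and 10403 UPM, EC had 3799, 4422, 4320 and 4447 UPM, and FSC had 719, 761, 718 and 681 UPM. The lanes of these 3 types did not overlap. Posterior lobe cells, outside the tests, had a mean of 1697 UPM in the male lanes and 268 UPM in the female lanes. EC exceeded FSC by 2.42 ± 0.35 and pericytes exceeded FSC by 3.63 ± 0.37 in log2 (adjusted p = 3.57e-05 and 1.77e-06), and pericytes against EC did not pass (1.21 ± 0.34, adjusted p = 0.0246).

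Among the hormone cells *Igfbp7* was highest in C, the ACTH cells, at 243, 272, 226 and 238 UPM, and next in T, at 158, 93.3, 93.0 and 136 UPM. C over T did not pass (1.19 ± 0.37, adjusted p = 0.0502), and T exceeded S (2.47 ± 0.39, adjusted p = 8.65e-04). C exceeded G by 3.82 ± 0.41, S by 3.66 ± 0.37 and L by 3.31 ± 0.38 in log2 (adjusted p = 5.22e-06, 1.73e-06 and 9.02e-06). Positive were 40.7% of C (37.2% to 44.2%) and 0.688% of S. Thinned to 2000 UMIs, 35.3% of C had a UMI, 2.75% of S and 0.554% of E. Per 1000 UMIs of the 3 FSC genes C had 10745 and 10236 *Igfbp7* UMIs in females and males, and FSC had 1351 and 1314.

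No sex difference of *Igfbp7* passed in the 7 types tested (edgeR). The nearest was L with -1.42 ± 0.35 (adjusted p = 0.00121), which passed without the female lane of 1868 cells (-1.69, adjusted p = 2.18e-06) and without the male lane of 2047 cells (-3.51, adjusted p = 1.14e-08). DESeq2 gave an adjusted p of 0.506 for it.

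*Igfbp4*, which encodes a carrier known mainly to block IGF action, stood in FSC at 177, 180, 175 and 183 UPM, in EC at 283, 270, 305 and 257 UPM and in pericytes at 378, 64.9, 482 and 398 UPM. FSC held 79.7% of its UMIs. The 3 types gave no call among themselves and each exceeded Le, C, G, T, S and L. Posterior lobe cells, outside the tests, had a mean of 548 UPM in the male lanes and 67.0 UPM in the female lanes. In L *Igfbp4* stood at 6.69 to 9.20 UPM, above C by 3.50 ± 0.47 in log2 (adjusted p = 5.52e-05). The sexes gave -0.04 ± 0.06 in FSC and 0.00 ± 0.20 in EC (adjusted p = 0.765 and 0.999).

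*Igfbp3*, which encodes the main carrier of IGF1 in blood, was highest in EC, at 576, 472, 914 and 1585 UPM. EC exceeded FSC by 3.68 ± 0.55 and Le by 3.20 ± 0.56 in log2 (adjusted p = 6.98e-05 and 2.85e-04), and against pericytes, the next highest type, it did not pass (2.102 ± 0.603, adjusted p = 0.0310). Positive were 60.2% of EC (51.3% to 68.5%), 19.3% of Le and 13.5% of FSC. FSC, with 33.0% of the cells, held 47.3% of its UMIs and EC 38.1%.

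The sexes differed for *Igfbp3* in opposite directions in EC and FSC. Male EC were higher by 1.19 ± 0.18 (adjusted p = 1.34e-04), a call that ended without the male lane of 2085 cells (0.78, adjusted p = 0.0126) and with DESeq2 (adjusted p = 0.295). FSC had 90.8 and 73.7 UPM in females and 39.0 and 47.6 UPM in males, a change of -0.96 ± 0.11 (adjusted p = 2.84e-05). It missed the limit without the female lane of 1868 cells (-0.82, adjusted p = 0.0277) or that of 1861 cells (-1.11, adjusted p = 0.00294). The make-up of FSC differed between the lanes: those positive for *Gpha2* and not for *Krt7*, which carried more *Igfbp3* (below), were 205 and 253 of 1154 female FSC and 173 and 199 of 1160 male FSC. Within them the female lanes, at 217 and 154 UPM, stood above the male lanes, at 111 and 129 UPM.

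In G *Igfbp3* had 2 UMIs in 146 female cells and 18 in 91 male cells, or 1.04, 1.06, 14.2 and 25.7 UPM. The change of 3.81 ± 0.65 missed the limit (adjusted p = 0.00118) and passed by library size alone (4.06, adjusted p = 1.56e-04), without the filter on low counts and with doublets kept. The effect in FSC minus that in G was -4.88 ± 0.82 (adjusted p = 3.78e-05) and in L minus G -6.05 ± 1.17 (adjusted p = 2.91e-04). In L *Igfbp3* had 17 female and 3 male UMIs, too few for the test between the sexes in L itself, so the last value rests on a gene that entered through other types. Beside the 18 UMIs male G had 17 UMIs of the 3 FSC genes and 1 UMI of the EC genes *Pecam1*, *Cdh5* and *Kdr*.

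*Igfbp2*, which encodes a carrier of brain and developing tissues, differed between the sexes in opposite directions in FSC and G. FSC had 102 and 98.2 UPM in females and 197 and 211 UPM in males (0.99 ± 0.07, adjusted p = 5.95e-08), and 26.2% of female and 45.0% of male FSC were positive. Median depth was 6359.5 UMIs per cell in female and 7413.5 in male FSC, and the part of depth in these shares was not tested. Without the female lane of 1868 cells the change was 0.999 and missed the limit (adjusted p = 0.00250). Posterior lobe cells, kept apart from FSC, were 50 male and 4 female, with 2739 and 6 *Igfbp2* UMIs. Whether cells of that lobe remained among the FSC and took part in this difference was not tested. G had 50.9 and 48.6 UPM in females and 4.73 and 4.29 UPM in males (-3.67 ± 0.45, adjusted p = 7.64e-05), and 12.3% of female and 2.20% of male G were positive. These values rest on 95 *Igfbp2* UMIs in female and 4 in male G. Median depth was 12383.5 UMIs per cell in female and 8871 in male G, and the part of depth in these shares was not tested.

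The lanes of the sexes did not overlap for *Igfbp2* in either type. The effect in FSC minus that in G was 4.74 ± 0.42 (adjusted p = 3.34e-11), where 3.02% of all genes passed. Female G had 95 *Igfbp2* UMIs beside 25 of the 3 FSC genes, 3800 per 1000 (exact Poisson interval 3074 to 4645), and female FSC had 182 per 1000. Pericytes had 670 to 2250 UPM and exceeded all types but FSC, for EC by 5.39 ± 0.65 in log2 (adjusted p = 1.87e-05).

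*Igfbp6*, whose product prefers IGF2, was a gene of the pericytes. They held 231 of its 260 UMIs, at 813, 346, 491 and 1013 UPM, and 91.3% of them were positive (79.2% to 97.6%). EC came next with at most 7.09 UPM in a lane. *Igfbp6* was the only gene of the 10 that passed against each of the 8 other types, over EC by 7.28 ± 0.54 in log2 (adjusted p = 4.38e-07), as did 0.726% of all genes for pericytes. Only pericytes met the filter on low counts for *Igfbp6*, so this is a description and no separate support.

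FSC were not uniform in these genes. FSC positive for *Gpha2*, a glycoprotein hormone subunit, and not for *Krt7* (830 cells) were set against FSC positive for *Krt7*, a keratin of simple epithelia, and not for *Gpha2* (103 cells), while 23 cells had both and 1358 neither. The median depth was 7275.5 and 7112 UMIs. Of the 6 members that could be tested 5 passed, 4 higher in *Gpha2* FSC and 1 in *Krt7* FSC, where 6.47% of all genes passed, 3.48% higher in *Gpha2* and 2.99% in *Krt7* FSC.

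*Igfbp3* had 217, 154, 111 and 129 UPM in *Gpha2* FSC and 4.11, 0, 3.21 and 3.87 UPM in *Krt7* FSC (5.69 ± 0.36 in log2, adjusted p = 9.79e-13). *Igfbp4* had 263 to 296 against 12.8 to 32.8 UPM (3.73 ± 0.21, adjusted p = 1.49e-13). *Igfbp5* had 4743 to 5568 against 1920 to 3492 UPM (1.02 ± 0.12, adjusted p = 3.83e-07). These 3 genes and *Igfbp7*, with 693 to 910 against 151 to 481 UPM (1.49 ± 0.16, adjusted p = 2.60e-08), were higher in every lane of *Gpha2* FSC.

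*Igfbp2* went the other way, with 36.8, 29.2, 57.9 and 76.5 UPM in *Gpha2* FSC and 173, 115, 375 and 403 UPM in *Krt7* FSC (-2.34 ± 0.15, adjusted p = 1.39e-12). In both groups its male lanes stood above its female lanes. *Igf1r* had 46.6 to 65.4 against 61.9 to 152 UPM and missed the limit (-0.78 ± 0.22, adjusted p = 0.0131). Of 30 other genes of the pathway (listed below) 2 passed, a share near the 6.47% of all genes: *Htra1*, a protease of IGFBPs, was higher in *Gpha2* FSC (2.23 ± 0.31, adjusted p = 3.13e-06), and *Igfbpl1*, a gene related to the IGFBPs, in *Krt7* FSC (-4.41 ± 0.52, adjusted p = 1.85e-07).

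**Figure D3:**
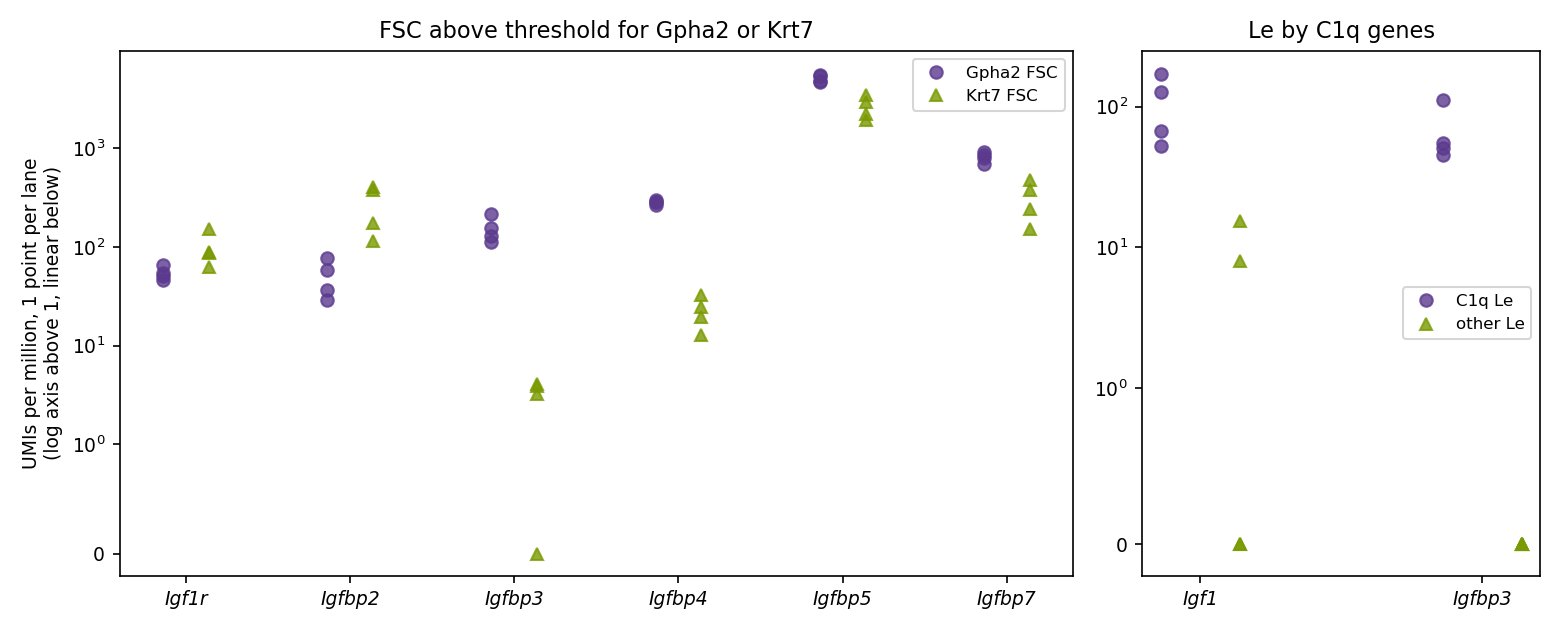
Left, IGF genes in FSC positive for *Gpha2* (circles) or for *Krt7* (triangles); right, *Igf1* and *Igfbp3* in Le with C1q genes (circles) or without (triangles). Each point is 1 lane, in UMIs per 1000000 UMIs on an axis that is logarithmic above 1; the lanes of *Igfbp2*, *Igfbp3*, *Igfbp4*, *Igfbp5* and *Igfbp7* do not overlap between the FSC groups.

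Le were split by the 3 C1q genes, complement genes of macrophages, into 493 cells with at least 2 of them and 54 with none. *Igf1* had 170, 127, 52.7 and 67.0 UPM in the C1q cells and 8.03, 15.5, 0 and 0 UPM in the others, 2 UMIs in all (4.39 ± 0.57 in log2, adjusted p = 2.17e-04), where 5.9% of all genes passed. Without the female lane of 1868 cells or the male lane of 2047 cells the call ended (adjusted p = 0.00896 and 0.00110). *Igfbp3* had 211 UMIs in C1q cells and none in the others, so it was at least 7.56-fold higher in C1q cells, taking 3 UMIs over the others as the limit, and missed the test's limit (adjusted p = 0.00139), which it passed without the male lane of 2085 cells and with DESeq2. Of 12 other genes of the pathway *Socs1*, a brake on cytokine signalling, passed, lower in C1q cells (-2.56 ± 0.36, adjusted p = 3.63e-04).

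In a comparison chosen after seeing the data, C1q Le alone gave a sex difference of *Igf1* of -1.28 ± 0.18 (adjusted p = 1.07e-04), where 0.544% of all genes passed.

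*Pappa2* was read almost only in S, with 799 of 810 UMIs. The 250 bases before its start in RefSeq (GRCr8, chr13:73681569-73681818, minus strand) are shown because it was the member found in S, a cell type that depends on the transcription factor POU1F1. Capitals mark the matches of TATNCAT, the core of POU1F1 sites, which was searched on both strands.

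Pappa2: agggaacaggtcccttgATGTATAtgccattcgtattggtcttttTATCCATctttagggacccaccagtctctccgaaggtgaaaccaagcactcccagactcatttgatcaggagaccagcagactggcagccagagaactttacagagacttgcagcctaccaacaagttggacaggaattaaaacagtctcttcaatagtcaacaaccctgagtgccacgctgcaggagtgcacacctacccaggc

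This motif was in 9.88% of 33469 promoter windows of 300 bases, and in no window of the other 9 members. A match describes the letters of the window only.

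*Pappa2* stood at 14.9 and 13.7 UPM in female S and at 39.8 and 41.9 UPM in male S, without overlap, a change of 1.46 ± 0.12 (adjusted p = 2.01e-11). Positive were 13.3% of female and 36% of male S, and thinned to 2000 UMIs 2.51% and 7.71% had a UMI. In log2, S exceeded FSC by 6.64 ± 0.63, C by 6.60 ± 0.73 and L by 7.05 ± 0.88 (adjusted p = 2.08e-06, 3.44e-05 and 2.07e-04). Le, EC, G, T and pericytes had no UMI, so S was at least 37.3-fold higher than Le, 28.2-fold than G, 11.6-fold than EC, 9.71-fold than T and 3.36-fold than pericytes, with 3 UMIs over the group as the limit. The pairs with T and pericytes, the types with fewest UMIs of these, did not pass (adjusted p = 0.00593 and 0.0120), and with DESeq2 no pair passed for *Pappa2*. Only S met the filter on low counts for *Pappa2*, so its calls between types are a description and no separate support. In S the male pool had more *Pappa2* and less *Igf1* than the female pool.

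Over 8 types the members gave 10 calls between the sexes in 38 tests, 3 higher in males and 7 higher in females (2 of them the *Igfbp5* counts in C and G), where 5.5% of all genes passed, 2.19% higher in males and 3.31% in females. In FSC 2 of 8 members passed against 2.93% of all genes, in S 2 of 7 (10.5%), in C 1 of 3 (0.604%), in G 2 of 5 (3.78%), in Le 1 of 3 (0.415%) and in EC 2 of 5 (0.814%). In L, where 17.6% of all genes passed, none of 5 members did in edgeR, and 3 had an unadjusted p below 0.05. In T (0.942%) neither of 2 members did, and 1 had an unadjusted p below 0.05. *Igfbp6* could not be tested between the sexes.

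**Figure D4:**
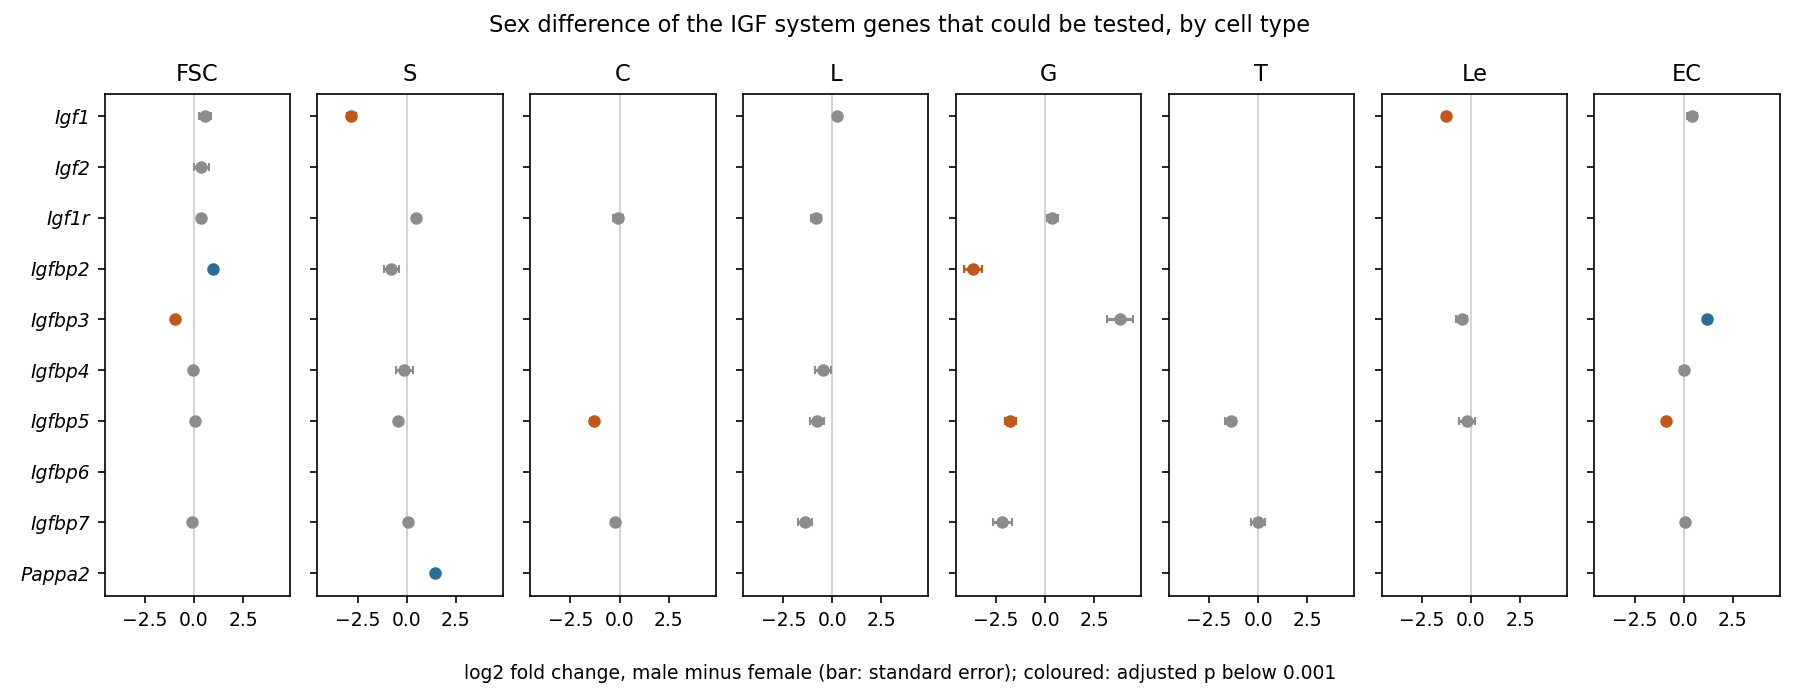
Difference between the sexes (log2 fold change, male minus female, with its approximate standard error) of the members that could be tested in 8 cell types; points passing an adjusted p of 0.001 are blue (higher in males) or orange (higher in females), the others grey. *Igfbp2* lies at 0.99 in FSC and at -3.67 in G, *Igf1* at -2.81 in S and *Pappa2* at 1.46 in S.

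For differences between sex effects every member but *Igfbp6* was tested in each of 10 pairs of types. This took in types with no UMI of a gene, such as L and G for *Igf2*. Of these tests of members 11 passed, where 3.69% of 134920 tests over all genes did. Besides those given above, *Igfbp2* passed for FSC minus S (1.76 ± 0.35, adjusted p = 5.10e-04) and for C minus G (4.51 ± 0.92, adjusted p = 8.23e-04). In C *Igfbp2* had 4 female and 10 male UMIs, too few for the test between the sexes in C itself, so this value rests on a gene that entered through other types.

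Other genes of the pathway were taken from a list of 48 receptors, carriers, proteases, adaptors, members of the PI3K-AKT-mTOR chain, genes of growth hormone signalling and IGF2 mRNA-binding proteins. Of 41 that could be tested between types 30 passed in at least 1 pair, and together they passed in 14.8% of tests against 12.6% for all genes. Their median was 5 pairs, and that of the members was 14.5. *Grb2*, a linker from receptors to RAS, was the only list gene that passed against each of the 8 other types, in Le (over EC by 1.52 ± 0.25, adjusted p = 1.25e-04), as did 2.61% of all genes.

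Between the sexes 3 of 39 list genes passed in FSC, where 2.93% of all genes did. *Pik3r1*, a PI3-kinase subunit (0.66 ± 0.07, adjusted p = 5.80e-06), and *Igfbpl1* (1.01 ± 0.17, adjusted p = 9.45e-04) were higher in males, and *Gab1*, an adaptor, in females (-0.69 ± 0.10, adjusted p = 3.18e-04). In S 5 of 33 passed, a share near the 10.5% of all genes and not read as a result about the list, with 4 of them higher in males. Calls of list genes were not followed under the alternatives. Calls over all genes in S were 575 higher in males and 677 in females with TMM, and 1005 and 441 without hormone genes in the library size. The 5 were led by *Socs3*, a brake on cytokine signalling (0.47 ± 0.06, adjusted p = 2.56e-07), *Grb10*, an adaptor that inhibits the IGF1 and insulin receptors (0.78 ± 0.11, adjusted p = 3.24e-06), and the kinase *Akt1* (0.66 ± 0.13, adjusted p = 1.46e-04). The other two, named because the count is small, were *Irs2*, an adaptor of the same receptors (1.07 ± 0.21, adjusted p = 1.75e-04), and the kinase *Gsk3b*, higher in females (-0.36 ± 0.08, adjusted p = 4.12e-04). In L 1 of 20 passed beside 17.6% of all genes, *Socs3* (1.18 ± 0.18, adjusted p = 3.59e-07). In C, G, T, Le and EC none of 30, 18, 9, 20 and 16 list genes passed in edgeR, with 4, 5, 2, 4 and 5 at an unadjusted p below 0.05.

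The named genes most like a member in level, with loci that carry only a LOC number passed over, by Pearson's r over 20 sums of type and sex among 16353 genes, were *Gabrq* (0.99) and *Sstr5* (0.99), a somatostatin receptor, for *Pappa2*. They were *Pcbp4* (0.97) for *Igf1r*, *Fstl1* (0.98) for *Igfbp4*, *Nxn* (0.97) for *Igfbp5*, *Adam15* (0.97) for *Igfbp3*, *Bicc1* (0.93) for *Igfbp2*, *Flrt2* (0.94) for *Igfbp7* and *Pmepa1* (0.90) for *Igf1*. These are descriptions of sums that share libraries. *Igfbp2* and *Igfbp5* are neighbours in RefSeq GRCr8, on opposite strands of chromosome 9, and in the FSC groups they went in opposite directions (-2.34 and 1.02).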

How the data were processed

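Per the authors' methods, UMIs were counted with Cell Ranger 2.1 on an NCBI rat annotation with lengthened 3′ ends, and lanes were brought to equal mapped depth. The deposited values are UMI counts of 30058 genes in 7861 cells. Lanes were read from barcode suffixes and tied to a sex by their cell numbers. Cells were named by marker thresholds (Otsu's method), 223 of them from 30 neighbours, and 188 doublets, 281 cells of high mitochondrial share, 328 outliers, 207 ambiguous and 24 unclassified cells were left out. Summed counts were tested with edgeR 4.0.16 (R 4.3.3): quasi-likelihood, TMM, filterByExpr with a minimum count of 10, Benjamini-Hochberg over all genes tested. FSC and Le groups had the lane as a block. Scripts were tested on simulated counts. Alternatives were DESeq2 1.42.0, other scalings, filters, cell sets and depths, and left-out lanes. Members and lists were chosen with earlier results of these data known. Named were all members, list genes that passed against every other type, at most 3 list genes per type between the sexes, and the genes most alike; *Htra1* and *Igfbpl1* in the FSC groups, *Socs1* in Le, and *Irs2* and *Gsk3b* in S were named after their values were seen. Equal-depth pooling discards reads of deeper lanes, and lengthened 3′ ends decide which reads a gene gets.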

Additional observations from a re-analysis of the deposited data

Results flagged for a closer look

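Sex effects (male minus female, log2) differed between types by the test of the difference itself in 11 cases. For *Igf1* FSC minus S was 3.37 and S minus L -3.03. For *Igfbp2* FSC minus G was 4.74, FSC minus S 1.76 and C minus G 4.51. For *Igfbp3* FSC minus G was -4.88 and L minus G -6.05. For *Igfbp5* FSC minus C was 1.36 and FSC minus G 1.85, and for *Igf1r* FSC minus L was 1.21 and S minus L 1.33. *Igfbp5* in C and male G lay below the ratio of FSC RNA, which cannot decide whether these cells express it, and this was not tested. *Igfbp2* in C and *Igfbp3* in L had 14 and 20 UMIs and could not be tested within those types.

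The 54 cells of the posterior lobe, outside every comparison, had *Igfbp2* at 4646 UMIs per 1000000 UMIs. They held 2745 UMIs, 43.4% of all *Igfbp2* UMIs, in 0.771% of the cells. The male lanes, with 50 of these cells, had 4182 and 5910, and the female lanes, with 4, had 135 and 0.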

How the results depend on the processing

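No paired analysis was possible because the columns of cells carry no replicate numbers of the samples. This holds for pairing female with male lanes by replicate number. The lane of each cell was known, and it was a block for the FSC and Le groups. For the differences of sex effects, whose types share the lanes, no result with the lane as a block is given. Direction was followed for contrasts of members between the sexes, of sex effects, and between the FSC or Le groups. None of these that passed in any setting changed its direction under the alternatives run. For the comparisons of types only the number of pairs passed was followed. An adjusted p limit of 0.05 gave 206 calls between types (136 at 0.001), 17 between the sexes (10), 23 differences of sex effects (11) and 2 between the Le groups (1). Between the sexes DESeq2 gave 6 calls and cells thinned to 2000 UMIs gave 3, and between the Le groups DESeq2 gave 2. Thinning ended more calls than those of *Igf1* in S and *Igfbp5* in EC, C and G named above. A call between the sexes given without its thinned result is therefore not shown to hold at equal depth. Leaving out a lane gave 143 to 149 calls between types, 8 to 11 between the sexes, 5 between the FSC groups each time and 0 to 2 between the Le groups. The lowest and highest counts between types under the other settings were 92 without pericytes and 196 without a filter. *Igf1* in Le missed the limit under every alternative that left out a lane or changed the scaling, and also with DESeq2 (adjusted p = 0.00870). *Igfbp2* for C minus G missed it by library size (adjusted p = 0.00204) and DESeq2 (adjusted p = 0.00163). Without hormone genes in the library size, calls over all genes in S were 1005 higher in males and 441 in females (575 and 677 with TMM), in L 1060 and 449 (511 and 1010) and in G 176 and 154 (118 and 147). By library size alone they were 2319 and 322 in L and 260 and 122 in G. *Igf1r* for FSC minus L missed the limit with DESeq2 (adjusted p = 0.00191). C1q Le alone were added after seeing the data. Shares of positive cells by type were checked with thinned cells and with any UMI counted as positive. In 41 of these checks the share left the interval of the main share, and in 35 it stayed within. Thin types (T, EC, pericytes) and genes of few UMIs (*Igf2*, *Igfbp6*) limit what could be called.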
